A study of Homo sapiens with 9 samples.

Results

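The AP-1 and immediate early gene loci are 8 stretches of hg19 around FOS, FOSB, FOSL1, FOSL2, JUN, JUNB, IER2 and IER3, in which peaks of EGR1 binding were collected. A peak belonged to a locus when its summit, the base of highest pileup, lay in a fixed window of 50 kb (60 kb for JUN and 70 kb for FOSL2, 430.0 kb in all). The windows held 35 of the 16285 peaks called in induced cells and 32 of the 12340 called in induced cells given clobetasol. The loci were selected on the values of the peak lists, namely the called peaks with their folds and q values, so the presence, fold and q value of a window peak are a description and no test was made on them.

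EGR1-bound chromatin had been immunoprecipitated and sequenced (ChIP-seq) from BJ-hTert-B-RAF-V600E cells, human fibroblasts immortalised with telomerase in which doxycycline switches on the BRAF oncoprotein V600E. All 9 libraries carry this transgene: 3 from proliferating cells given ethanol and DMSO, 3 from cells given 1000 ng/mL doxycycline and DMSO, and 3 from cells given the same doxycycline with 2 nM clobetasol, a strong synthetic glucocorticoid, each for 24 h. Titles name DMSO for the clobetasol group too, while its source label does not, and replicates 2 and 3 of the proliferating group share a sample name within their library names. The study asked how induction of the oncoprotein changes EGR1 occupancy and how a glucocorticoid alters that change. The deposited lists pool the 3 libraries of each treated group and call peaks against the pooled proliferating libraries, so each value below rests on 1 pool per group, without replicate spread. It is not given in the sources used here whether replicate libraries were separate cultures, or whether the line is a single clone.

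AP-1 is a family of dimeric transcription factors built from a JUN protein and a FOS or another JUN protein, which bind the palindrome TGANTCA through a basic leucine zipper. ERK signalling, which BRAF drives, switches on FOS and EGR1 within minutes through serum response factor and its ETS partners, without new protein synthesis. FOSL1 and FOSL2 follow later, and FOSL1 is itself a target of AP-1, while JUN is induced largely through AP-1-like and MEF2 sites. EGR1 is a zinc finger factor that binds GC-rich promoters, and the ligand-bound glucocorticoid receptor is known for restraining AP-1 activity by contact with its subunits. IER2 and IER3 are further immediate early genes, encoding a nuclear regulator of transcription and a short-lived protein linked to apoptosis and ERK signalling.

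Promoter sequence is shown first because EGR1 recognises short GC-rich letters. RefSeq (GRCh38.p14) gave the sequence from 250 bases before to 50 after the start for 6 of the 8 genes, and FOSL1 and IER3 had no entry. The stretches before the start in the 3 genes with a match to an EGR1 core follow, 5′ to 3′ on the strand of the gene, with capitals for the core GCGNGGGC and for the letters TGACG, the 5′ part of the cAMP response element.
FOS chr14:75278578-75278827, + strand: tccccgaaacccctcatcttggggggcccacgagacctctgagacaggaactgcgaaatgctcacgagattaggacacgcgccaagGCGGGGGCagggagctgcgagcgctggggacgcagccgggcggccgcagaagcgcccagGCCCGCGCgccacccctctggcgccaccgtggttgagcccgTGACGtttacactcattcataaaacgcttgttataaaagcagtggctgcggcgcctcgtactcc
JUNB chr19:12791236-12791485, + strand: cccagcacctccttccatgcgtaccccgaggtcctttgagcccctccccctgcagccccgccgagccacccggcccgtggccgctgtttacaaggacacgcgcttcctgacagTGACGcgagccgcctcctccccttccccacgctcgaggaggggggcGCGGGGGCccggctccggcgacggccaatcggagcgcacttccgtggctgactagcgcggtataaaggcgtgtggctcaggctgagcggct
IER2 chr19:13150161-13150410, + strand: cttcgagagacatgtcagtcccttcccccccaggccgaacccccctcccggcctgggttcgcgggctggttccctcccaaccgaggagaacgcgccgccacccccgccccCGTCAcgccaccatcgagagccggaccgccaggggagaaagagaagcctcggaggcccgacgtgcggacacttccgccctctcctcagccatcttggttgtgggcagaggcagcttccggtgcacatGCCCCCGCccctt
Searching both strands, neither EGR1 motif of full length occurred in the 6 promoters (GCGTGGGCG is in 0.784% and GCGGGGGCG in 5.02% of 27305 promoters of the same length). The core GCGNGGGC, which is contained in both, occurred in FOS (at -164 to -157 and -105 to -98), JUNB (-91 to -84) and IER2 (-13 to -6), and in 16.9% of all promoters. TGACG occurred in all 6, nearest the start at -64 to -60 in FOS and -60 to -56 in FOSB, and in 25.01% of all promoters. These shorter letters were searched after the sequences had been seen. Of the other motifs, TGANTCA was found in FOSL2 alone, at 5 to 11 past its start (7.76% of promoters), and the whole element TGACGTCA, which contains TGACG, and the CArG box of serum response factor in none (1.98% and 1.29%). Sites more than 250 bases before a start were not searched, so a gene without a match here can hold one further out. The 6 stretches before the start were 62.0% (JUN) to 70.8% (JUNB) G and C, against a median of 58.0% over all. Peak positions below are in hg19, of which no gene annotation was used. Whether a peak covers one of these promoters is therefore not stated, and a window peak is not assigned to a gene. In RefSeq order the nearest protein-coding neighbours are TMED10 and JDP2 for FOS, ERCC1 and RTN2 for FOSB, CCDC85B and C11orf68 for FOSL1, BABAM2 and PLB1 for FOSL2, MYSM1 and FGGY for JUN, HOOK2 and PRDX2 for JUNB, STX10 and CACNA1A for IER2, and FLOT1 and DDR1 for IER3.

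Each of the 8 windows held at least 1 EGR1 peak in both lists. JUNB held 9 induced peaks, IER2 8, FOSL1 5, FOSB 4, FOS and FOSL2 3 each, IER3 2 and JUN 1. With clobetasol the counts were 7 for JUNB, 8 for IER2, 5 for FOSL1, 4 for FOSB, 3 for FOSL2, 2 for FOS and IER3, and 1 for JUN. Over chromosomes 1 to 22 and X, 18.1% of 50 kb tiles held an induced summit and 14.9% a clobetasol summit, while 8 or more summits were held by 0.0247% of tiles among induced peaks and 0.0099% among clobetasol peaks. The tiles were a fixed grid up to the last listed peak of each chromosome, while the windows, of 50 to 70 kb, were placed around chosen genes. The 2 are thus not on the same basis. Induced peaks per 100 kb were 8.14 in the windows and 0.531 over those chromosomes, a difference the choice of loci contains. Near the bounds, the first FOSL1 peak had its summit at 65640134, just inside the window (fold 5.65), and a peak of fold 5.46 lay 278 bp beyond the end of the FOSB window.

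**Figure D1:**
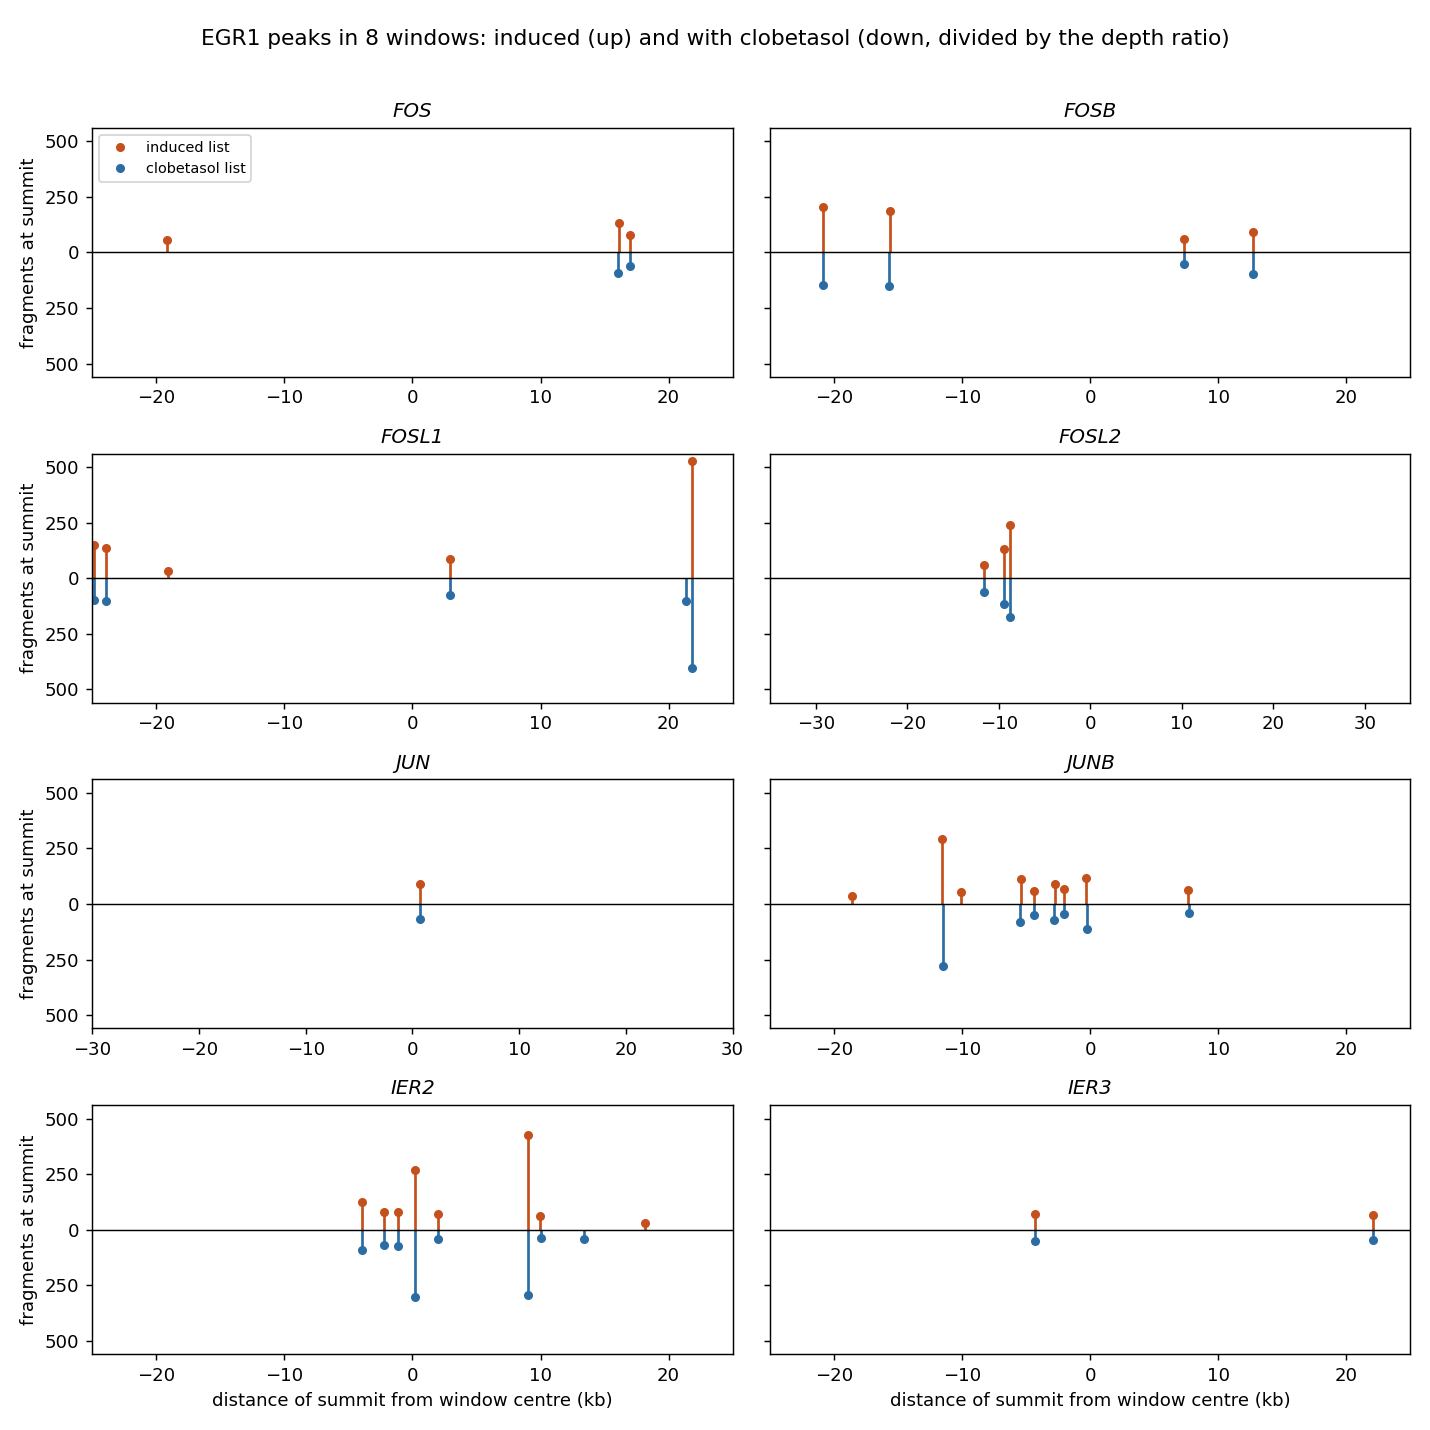
Position and height of the listed EGR1 peaks in the 8 windows. The horizontal axis gives the distance of the summit from the window centre in kb, and the vertical axis the fragments at the summit, upward for the induced pool and downward for the clobetasol pool divided by the depth ratio of 1.21. JUNB and IER2 carry clusters near the centre, JUN has a single peak, and the tallest peak, of 528 fragments, is at the far end of the FOSL1 window.

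The authors' fold is the pileup of the treated pool over the scaled proliferating level at the summit. Over all peaks it ran from 1.09 to 14.01 in the induced list and from 1.06 to 11.67 in the clobetasol list. Among the induced window peaks it ran from 1.81 to 7.95 with a median of 4.04, against 3.64 for all induced peaks. Of these 35 window peaks, 20 exceeded the median of the list. Among the clobetasol window peaks the fold ran from 1.71 to 5.63 with a median of 3.05, against 3.16 for all, and 15 of 32 exceeded that of the list. By −log10 q, on which the loci were also chosen, window peaks stood higher. Medians were 21.1 against 14.9 for all induced peaks, and 17.6 against 13.8 for all clobetasol peaks. The median −log10 q of the list was exceeded by 27 of 35 and 20 of 32 window peaks. Window peaks were also wide, with a median of 601 bp in the induced list (423 bp for all) and 417 bp in the clobetasol list (339 bp for all). Of the 35 induced peaks, 6 were 1 kb or wider, in the JUN, FOSL1, JUNB and IER2 windows, against 8.68% of all induced peaks. With clobetasol the JUN peak alone was, 1 of 32, against 2.2% of all clobetasol peaks.

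**Figure D2:**
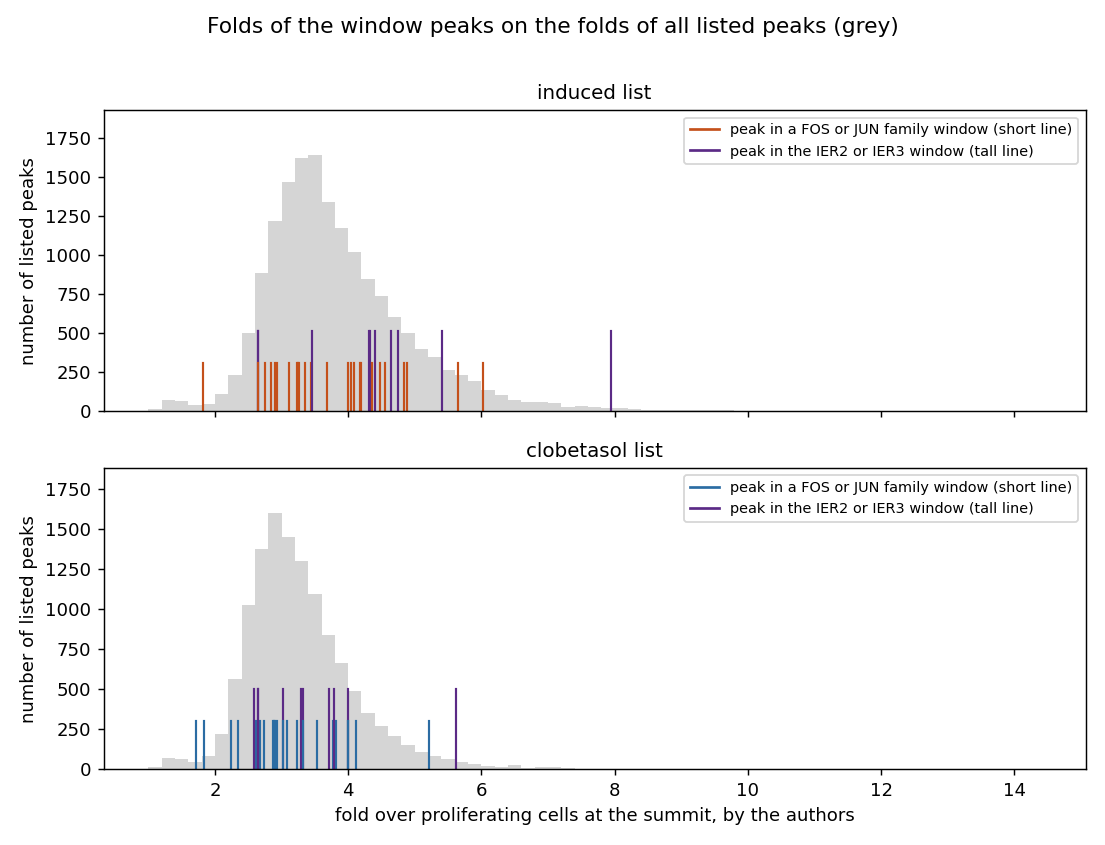
Fold of each window peak against all listed peaks. The horizontal axis is the authors' fold over proliferating cells, the grey bars count all peaks of a list, and each coloured line is 1 window peak (taller for IER2 and IER3). The lines spread across the grey distribution, with the strongest IER2 peak far to the right in both lists, at 7.95 and 5.63.

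Fragments at a summit are given below on the scale of the induced pool: the proliferating level as scaled for that pool, the induced pileup, and the clobetasol pileup divided by 1.21, by which the clobetasol pool was the deeper. The ratio of the last to the second carries an exact 95% interval that covers counting error only. It compares 2 pools of fragments and not conditions with replicates.

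FOS encodes the founding partner of JUN in AP-1. Its strongest peak, chr14:75760789-75761397, had 26.5 fragments in proliferating cells, 133 in induced cells (fold 4.88) and 93.8 with clobetasol. The pileup with clobetasol was lower than with induction alone, at a ratio of 0.706 (0.544 to 0.913). It was above proliferating cells, as a peak of that list has to be. A second summit 868 bp further on, in chr14:75761748-75762473, had 17.1, 80 and 63.4 fragments, and its ratio of 0.792 had an interval that holds 1 (0.572 to 1.097). The remaining FOS peak, chr14:75725513-75725913, lay 35273 bp before them at the other end of the window. It had a fold of 2.76, 19.3 proliferating and 55 induced fragments, and no overlapping peak with clobetasol.

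FOSB encodes a FOS protein that is likewise induced within minutes of a stimulus. The peaks of its window kept to the same 4 places in both lists. The strongest, chr19:45959099-45959786, went from 30.3 fragments in proliferating cells to 188 with induction (fold 6.03) and 153.1 with clobetasol, a ratio of 0.814 (0.661 to 1.003). At chr19:45954006-45954504 the values were 43.6, 202 and 146.5, and the ratio was 0.725 (0.590 to 0.892). The first of these intervals just reaches 1 and the second lies below it. At the weaker peaks, chr19:45982172-45982497 and chr19:45987561-45987854, the induced pool had 61 and 92 fragments and the ratios were 0.837 (0.578 to 1.211) and 1.038 (0.783 to 1.380). The last was among 3 ratios above 1 over all windows.

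FOSL1 encodes FRA-1, the FOS family member known for sustained expression under continued ERK signalling. The peak of highest −log10 q in its window, chr11:65686107-65687693, had the most fragments of all window peaks, 179.8 in proliferating cells, 528 with induction and 404.1 with clobetasol. The proliferating level there was the highest of all induced window peaks, and the fold, 2.93, was above that of only 16.6% of induced peaks. Its ratio was 0.765 (0.676 to 0.867). The 1587 bp induced peak met 2 narrow clobetasol peaks, with summits 466 bp apart. The pair at the start of the window, chr11:65639785-65640482 and chr11:65640897-65641353, had folds of 5.65 and 4.08, with 148 and 136 fragments on induction and 99.6 and 102.1 with clobetasol. Both intervals lay below 1, at ratios of 0.673 (0.525 to 0.861) and 0.750 (0.584 to 0.964). Nearest the window centre was the widest peak of all, chr11:65666608-65668566, with 16.5, 84 and 74.1 fragments and a ratio of 0.882 (0.648 to 1.202). The clobetasol peak there was 975 bp wide against 1959 bp. The fifth induced peak, chr11:65645745-65646131, had 32 fragments, a fold of 3.36 and no clobetasol peak.

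FOSL2 encodes FRA-2. Its 3 peaks stood within 2910 bp of each other in a window of 70 kb. The peak with the most fragments, chr2:28616119-28616412, had 73.4 in proliferating cells, 239 with induction (fold 3.23) and 175.3 with clobetasol, a ratio of 0.734 (0.607 to 0.886). Its neighbour chr2:28615179-28615754 had the larger fold, 4.17, from 30.9 to 132 fragments, and 118.5 with clobetasol (ratio 0.898, 0.704 to 1.146), and its partner had the highest −log10 q of the window in the clobetasol list. The weakest, chr2:28613214-28613566, had 21.0, 57 and 61.7 fragments and a ratio of 1.083 (0.757 to 1.556). Ratios thus ran from below to above 1 inside 3 kb, with intervals that overlap.

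JUN encodes the AP-1 subunit that can pair with itself as well as with FOS proteins. A single broad peak, chr1:59249213-59250866, was listed in its window, 1654 bp wide on induction and 1498 bp with clobetasol. It had 24.8 fragments in proliferating cells, 88 in induced cells (fold 3.45) and 70.0 with clobetasol. The ratio of 0.795 had an interval of 0.583 to 1.084, so a change between the induced pools was not detectable at this depth. By −log10 q (19.2) JUN had the weakest leading peak of the 8 windows. An induced peak of −log10 q 22.9 and fold 2.59 lay 1057 bp beyond the end of the JUN window. That value is higher, but also under the next lowest leading peak, 26.4 at IER3.

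JUNB encodes a JUN protein that often opposes JUN in proliferation. Its window held the most peaks but none of fold over 4.19. The leading peak, chr19:12899372-12899700, had 26.5 fragments in proliferating cells, 114 on induction and 79.8 with clobetasol, a ratio of 0.700 (0.529 to 0.926). Around it, chr19:12902069-12902370 had 23.7, 90 and 70.8 fragments, and chr19:12904425-12905064 had 40.8, 118 and 112.8. Their ratios were 0.787 (0.578 to 1.069) and 0.956 (0.742 to 1.233). The tallest peak, chr19:12893259-12893563, had 160.5 fragments already in proliferating cells, 292 on induction and 279.9 with clobetasol, the smallest fold of all induced window peaks (1.81). Its ratio of 0.958 (0.817 to 1.125) was 1 of 2 window intervals lying above the median of all shared peaks. In the clobetasol list chr19:12904425-12905064 met the peak of highest −log10 q of this window. Of the other 5 induced peaks in this window, with folds from 2.91 to 4.04, the 2 without a clobetasol peak were chr19:12885505-12886566 (34 fragments) and chr19:12894721-12894998 (53 fragments).

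IER2 had the strongest peak of the 8 windows. At chr19:13273799-13274239, 52.9 fragments in proliferating cells stood against 428 on induction and 295.5 with clobetasol. Its fold of 7.95 was above that of 99.4% of induced peaks, and 5.63 with clobetasol. The ratio, 0.690 (0.598 to 0.796), was the only window ratio with an interval wholly below the median of all shared peaks, 0.799. Next in −log10 q was chr19:13265115-13265370, a narrow peak of 256 bp with 100.9 fragments in proliferating cells, 269 on induction and 302.1 with clobetasol. There the pileup was no lower with clobetasol, at the highest ratio of all windows, 1.123 (0.957 to 1.319). Its neighbour 1733 bp away, chr19:13265780-13267126, had the lowest ratio, 0.596 (0.406 to 0.871), with 15.2, 69 and 41.2 fragments. The peak chr19:13260445-13262150, 1706 bp wide, had 28.1, 125 and 89.7 fragments, a ratio of 0.718 (0.550 to 0.935), and was 747 bp wide with clobetasol. The remaining 4 induced peaks of the IER2 window had 31 to 81 fragments, and of these chr19:13274673-13275087, beside the strongest peak, had a ratio of 0.645 (0.431 to 0.960). Another of them, chr19:13262467-13263181, had 17.6, 81 and 70.8 fragments and a ratio of 0.874 (0.638 to 1.199). Its partner had rank 3 by −log10 q among the clobetasol peaks of this window. The window also held a peak listed only with clobetasol, chr19:13278227-13278691, with 53 fragments in that pool and a fold of 2.64, and one listed only on induction, chr19:13282903-13283720, with 31 fragments.

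IER3 had 2 peaks, 26381 bp apart, with similar values. The peak chr6:30709967-30710812 had 12.1 fragments in proliferating cells, 70 on induction (fold 5.41) and 49.4 with clobetasol. At chr6:30736923-30737296 the values were 12.7, 64 (fold 4.75) and 46.1. These were low proliferating levels, and the lower of the 2 folds was above that of 83.0% of induced peaks. The ratios, 0.706 (0.491 to 1.010) and 0.720 (0.494 to 1.047), were low, but with so few fragments their intervals hold 1. The locus lies in the major histocompatibility complex, of which hg19 carries further haplotype contigs, and peaks listed on those contigs are not in these values. Induced pairs of about the same spacing were listed on 4 of those contigs and are given further below. How fragments that match several copies were placed was not tested. The levels and counts here are therefore those of the chromosome 6 sequence alone.

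**Figure D3:**
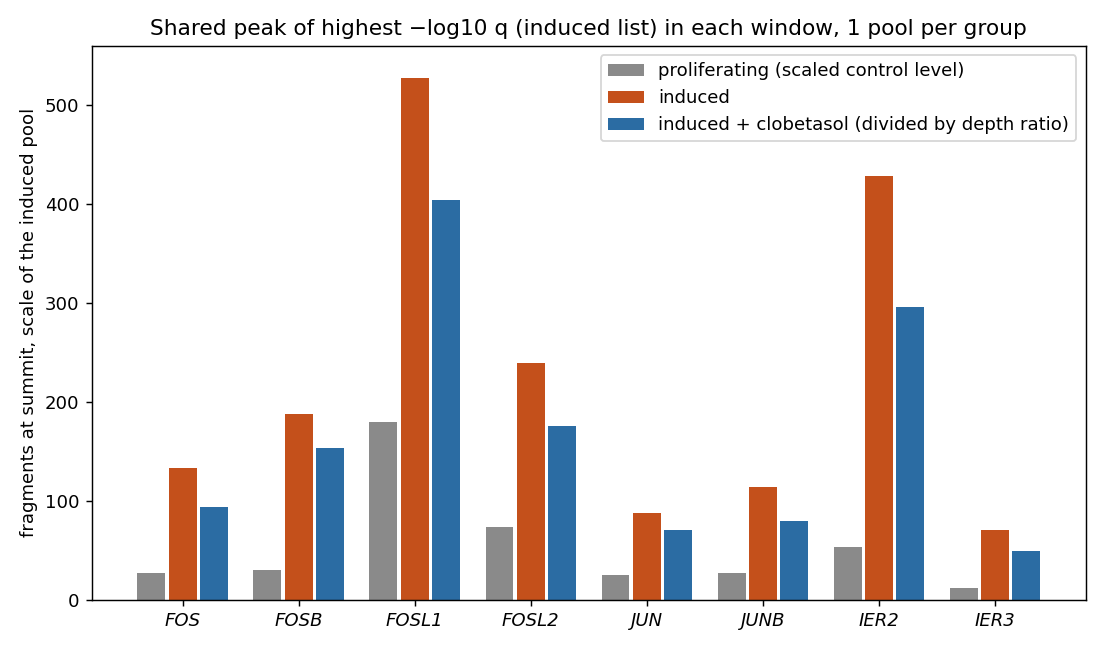
Levels at the shared peak of highest −log10 q in the induced list in each window. Bars start at 0 and give fragments at the summit on the scale of the induced pool for proliferating cells (grey), induced cells (orange) and induced cells with clobetasol (blue), 1 pool per group and no error bars. The peaks were chosen by the induced list and had to be called over proliferating cells in both lists, which bears on the order of the bars. FOSL1 and FOSL2 have the tallest grey bars, at 179.8 and 73.4.

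The comparison of the lists asked how far clobetasol changed these sites. Of the 35 induced window peaks, 30 had an overlapping clobetasol peak (85.7%), beside 64.0% of all induced peaks. This is a description, since the loci were chosen on the called peaks and peaks of a window are not independent. By strength, of the 30 window peaks with −log10 q of at least 10, 29 were overlapped (80.5% of all such peaks), and of the 5 below 10, 1 was, the weakest FOSL2 peak (28.7% of all such peaks). The 5 peaks without a partner had 31 to 55 fragments and folds of 2.76 to 3.45. They lay in the FOS, FOSL1, JUNB (2 peaks) and IER2 windows, while each FOSB, FOSL2, JUN and IER3 peak had a partner. In the other direction, 31 of 32 clobetasol window peaks met an induced peak (86.4% of all clobetasol peaks), the exception being the IER2 peak named above.

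At the 30 shared peaks the median ratio was 0.776, against 0.799 over all 10429 shared peaks. The ratio was below 1 at 27, against 87.4% of all shared peaks, the exceptions being single peaks of FOSB, FOSL2 and IER2. The interval lay wholly below 1 at 11 of 30, against 35.4% of all shared peaks, and above 1 at 0, against 0.662%. Those 11 were 4 in IER2, 3 in FOSL1 and 1 each in FOS, FOSB, FOSL2 and JUNB. These shares of ratios and intervals were near those of the whole list. Without the depth ratio, on raw fragments, the interval lay below 1 at 1 peak, the strongest of IER2, and the median ratio was 0.943, so the other calls rest on that scaling. A shared peak had to pass the threshold of both lists, which share the proliferating control, and the 5 peaks without a partner have no ratio.

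**Figure D4:**
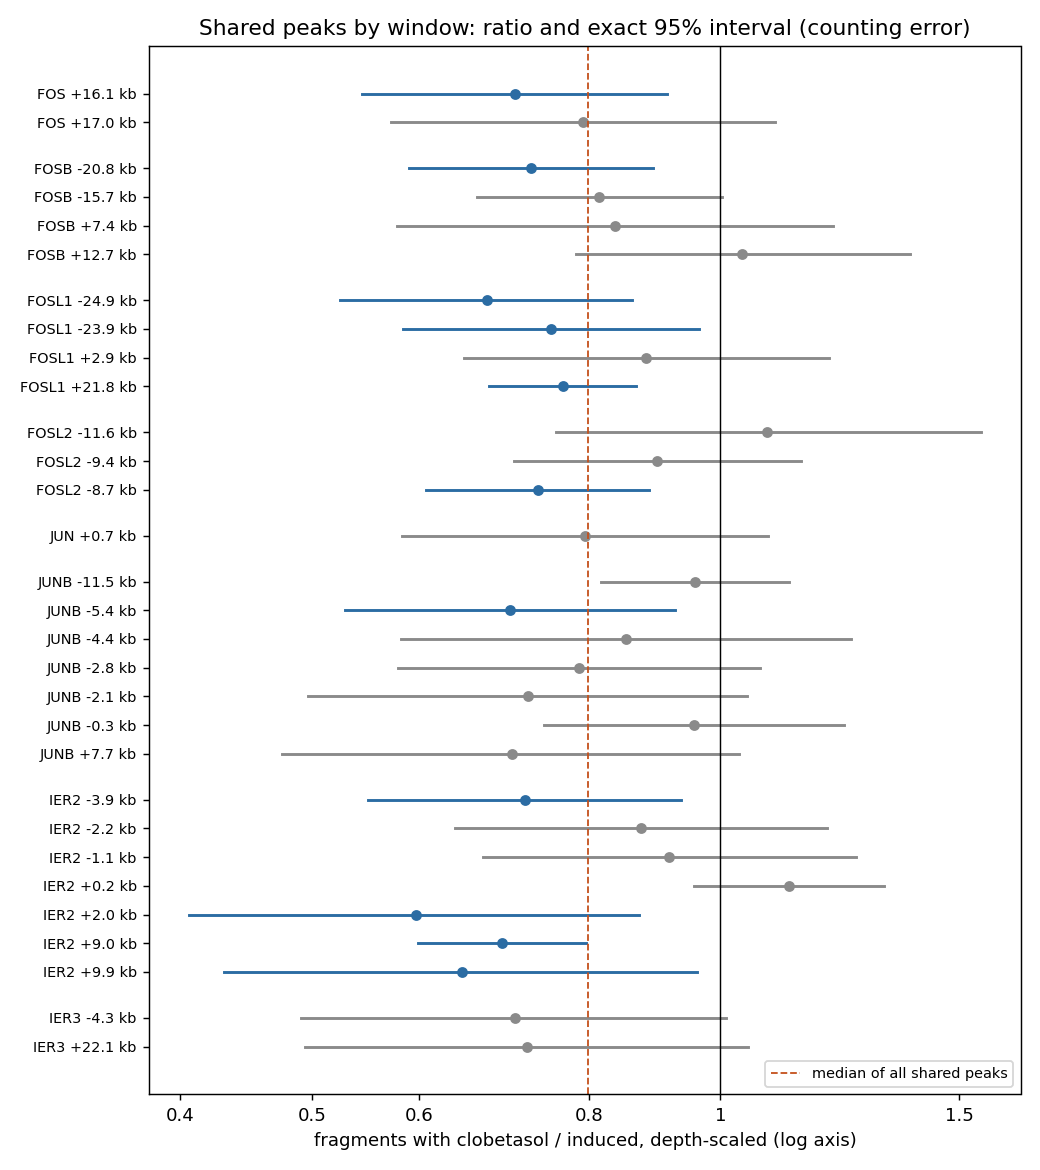
Ratio of summit fragments with clobetasol to those with induction alone at the 30 shared window peaks. Points are depth-scaled ratios on a log axis, bars are exact 95% intervals for counting error, labels give the distance of the summit from the window centre, and blue marks the 11 intervals below 1. The black line is 1 and the dashed line the median of all shared peaks, 0.799, which 27 of the 30 intervals hold.

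The shared window summits lay a median of 16 bp apart between the lists, against 10 bp over all shared peaks. All 30 were within 100 bp (66 bp at most, at an IER2 peak), as were 95.8% of all shared peaks, and the pairing itself required overlap. The clobetasol peak was the narrower at 24 of 30, against 79.0% of all shared peaks. The largest narrowing was at FOSL1, from 1587 to 267 bp at chr11:65686107-65687693, where a second clobetasol peak was listed beside it. At the last JUNB peak, chr19:12911895-12912828, the width was 934 bp against 245 bp, with 61 and 42.8 fragments. The proliferating fragments recovered from the 2 lists, which should be the same at the same base, gave quotients (clobetasol list over induced list) of 0.911 to 1.23 with a median of 0.987 over the 30 pairs, whose summits are mostly not at the same base. They were 326 and 326 at the FOSL1 peak just named, and differed most at the central FOSL1 peak, chr11:65666608-65668566, with 30 by the induced list against 37 by that of clobetasol.

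In proliferating cells the windows differed in their level before induction. The median control level of the induced window peaks was 23.7 fragments, from 8.27 to 179.8, against 16.5 for all induced peaks. The 4 highest levels were at the FOSL1 peak (179.8), the JUNB peak (160.5), the narrow IER2 peak (100.9) and the FOSL2 peak (73.4). The control level is the denominator of the fold. Their folds, 1.81 to 3.23, were all under the median of the induced list, and their ratios with clobetasol were 0.765, 0.958, 1.123 and 0.734, on either side of the median of all shared peaks. Without an input library, EGR1 signal in proliferating cells and other background at these 4 sites cannot be told apart.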

How the data were processed

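EGR1 ChIP-seq of 9 libraries in 3 groups was used as 2 deposited peak lists, in hg19. Per the submitters' processing notes, the tools included cutadapt 1.15, BWA, MACS2 2.1.1.20160309 and SAMtools 1.3.1. The caller's settings were not given in the sources used here. As peak names in the files show, the authors pooled the 3 libraries of a group. The authors' values at each summit are the fold (a ratio), the −log10 of p and q, and a score of 10 times the −log10 q, in whole numbers. The lowest deposited −log10 q were 5.00228 and 5.00012. The depth of each library is unknown, as the files give no totals.

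The treated pileup and control level were solved from fold, as (pileup + 1)/(control + 1), and p, as a Poisson tail, for every peak. Pileups came out within 0.05 of a whole number for 99.6% and 99.5% of peaks, and for all 35 and 32 window peaks. In 5000 simulated peaks per list, 20% of them off the step, all pileups and both simulated steps were recovered. The simulation was built with the same formulas, with steps other than those of the data and control levels below the highest here. It therefore checks the solving alone, and cannot show that the caller's values follow these formulas. Of control levels under 30, 82.8% and 84.6% fell within 0.02 of a multiple of a step, 0.552 and 0.670. The quotient of the steps, 1.21, was taken as the depth ratio, and that of the lowest control levels was 1.22. Off the step were 3 of the 35 induced and 3 of the 32 clobetasol window levels, which are then no whole number of proliferating fragments. In both lists these included the IER2 peak of the lowest ratio, with control levels of 15.2 and 18.3. Each induced peak was paired with the overlapping clobetasol peak (at least 1 bp) of most fragments. Intervals of ratios and shares are exact (Clopper-Pearson) at 95% and cover counting error only, since duplicate removal is not given in the sources used here. No test between conditions was made. The text names all 8 loci, the peak of highest −log10 q in each and, as each list held over 30 window peaks, the 3 highest per locus; others named, and the motifs GCGNGGGC and TGACG, were chosen after their values were seen. Members and lists were chosen with earlier results of these data known. Other immediate early genes were not counted, because no hg19 annotation was used. Python 3.11.15, SciPy 1.17.1 and pandas 2.3.3 were used. Alternatives covered thresholds, window bounds, pairing and depth scaling.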

Additional observations from a re-analysis of the deposited data

Results flagged for a closer look

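Peaks on the chromosome 6 haplotype contigs of hg19, outside the windows, repeat the spacing of the IER3 pair. In the induced list they do not repeat the order of its folds. The 2 IER3 peaks on chromosome 6 were 26381 bp apart in the induced list and 26389 bp with clobetasol. Pairs of summits within 200 bp of that spacing were listed on 4 haplotype contigs in the induced list, 4 of 191 summit pairs on these contigs, and on 5 contigs in the clobetasol list, 5 of 65 pairs. That these pairs are copies of the IER3 peaks is inferred from the spacing alone, since no hg19 sequence was used. On the 4 contigs with the pair in both lists, the first peak had 48 to 77 induced fragments and the second 47 to 77, beside 70 and 64 on chromosome 6. The second peak had the larger induced fold on all 4, at 4.39 to 7.94 against 2.63 to 4.38 for the first, while on chromosome 6 the first was larger, 5.41 against 4.75. With clobetasol the second peak had the larger fold on these 4 contigs, at 4.30 to 7.42 against 2.23 to 3.33. It was also slightly larger on chromosome 6, at 3.78 against 3.72. On the contig with the pair in the clobetasol list alone, the first was larger, 3.47 against 2.80. Summed over chromosome 6 and these 4 contigs, the first peak had 322 induced and 325 clobetasol fragments, a depth-scaled ratio of 0.831 (0.710 to 0.972), and the second 327 and 332, a ratio of 0.836 (0.715 to 0.977). Single places lay on both sides of 1. The first peak ranged from 0.706 on chromosome 6 to 1.149 on 1 contig, with every interval holding 1. The second ranged from 0.682 (0.473 to 0.980) to 1.19 (0.809 to 1.766), with 0.720 on chromosome 6, and its interval held 1 at all places but the lowest. The sums were chosen after the data were seen, and how the aligner placed fragments that match several copies was not tested.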

How the results depend on the processing

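For 13 results, 64 alternative values were computed: 47 stayed close (for ratios, within the counting interval of the value given), and 17 moved. At a −log10 q of at least 20, 19 induced and 14 clobetasol window peaks were left. At a fold of at least 3, 18 clobetasol peaks were left. With 10 kb taken off each end of the windows, 23 induced peaks were left. Without depth scaling, the median ratio of the shared window peaks was 0.943, 1 interval lay below 1, and the ratios at the leading peaks of FOSL1, FOSL2 and IER2 were 0.930, 0.891 and 0.839. With the median of all shared peaks set to 1, these were 0.971, 1, 0.958, 0.918 and 0.864, and the ratio at the leading FOSB peak turned from 0.814 to 1.02. Under both scalings the intervals at the leading FOS and JUNB peaks, which lay below 1, came to hold 1 (0.662 to 1.109 and 0.642 to 1.125 without depth scaling). On fragments in excess of the control level, the median ratio was 0.679, against 0.735 over all shared peaks. The ratio of the leading FOSL1 peak was then 0.644. The scaling itself sets the shifts without depth scaling and with the median set to 1. The ratios on excess fragments kept the depth ratio and differ by subtracting the control level. The depth ratio rests on the lists alone, and no spike-in or other measure of immunoprecipitation yield was used. No paired analysis was possible because the lists hold pooled groups and no value per replicate, and for the same reason no replicate could be left out.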
